A study of Mus musculus with 6 samples.

Results

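Genes of the vitamin K-dependent matrix proteins and of the enzymes that modify them were examined in bulk RNA-seq of mouse dental papilla cells (mDPCs), the tooth germ cells that give rise to odontoblasts and pulp. They were chosen by name from the 31613 genes of the deposited table, with earlier results of the genotype comparison known, and are the 3 osteocalcin copies *Bglap*, *Bglap2* and *Bglap3*, the matrix Gla protein gene *Mgp*, the carboxylase gene *Ggcx* and the vitamin K epoxide reductase genes *Vkorc1* and *Vkorc1l1* (7 genes in all). The cells came from mice at postnatal day 6. The 3 control libraries are labelled wild type, while the study's methods give Setd2fl/fl mice as controls. The 3 Dmp1-Cre;Setd2fl/fl libraries came from mice that also carry Dmp1-Cre, which acts in cells that express *Dmp1*, chiefly odontoblasts and osteocytes, so that only some of the collected cells are expected to have lost Setd2. Both groups would then share the floxed allele. Each library held RNA pooled from 3 biological replicates, and the mice listed by the study are too few for every pool to hold its own, so p-values reflect only how these libraries vary, in part perhaps technically.

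Depth ranged from 18557647 to 19210750 counts per library. *Setd2* itself stood at 92.0 to 98.0 CPM (counts scaled to library size and, by TMM, to library composition) in the control and at 96.0 to 102 CPM in the Dmp1-Cre;Setd2fl/fl libraries. This count covers every cell collected and the whole gene, and the deleted segment is not given in the sources used here, so it checks no label. The odontoblast marker *Dspp* was at 13900 to 14372 CPM in control libraries, so odontoblast RNA was present. Replicate 3 of both groups stood apart from the other libraries in dental epithelium genes, with 16218 and 26408 CPM of *Amelx*, the main enamel protein gene, against 823 to 3193 CPM in the other 4 libraries.

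Gla proteins carry glutamate residues that the carboxylase GGCX converts to gamma-carboxyglutamate, which binds calcium. The reaction consumes reduced vitamin K, and VKORC1 or its paralog VKORC1L1 recycles the vitamin K epoxide that it leaves. Osteocalcin is an abundant Gla protein of bone and dentin made by osteoblasts and odontoblasts, and matrix Gla protein, made by cartilage, smooth muscle and endothelial cells, inhibits calcification of soft tissue.

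The osteocalcin copies are near-identical, which limits how well short reads can be told apart between them. They lie in a row on the minus strand of chromosome 3, *Bglap* (ENSMUSG00000074483) from 88383501 to 88384464, *Bglap2* (ENSMUSG00000074486) from 88377736 to 88378699 and *Bglap3* (ENSMUSG00000074489) from 88368616 to 88372743. Their gene bodies are 4.80 and 4.99 kb apart. Positions are those of the deposited table and were read as GRCm38, since 11618 of 24507 genes (47.4%) have the same start or end in RefSeq GRCm38.p6 and 380 of 30418 (1.25%) in a GRCm39 annotation, although the submitters' processing notes name GRCm39. Each copy has 4 exons and a coding sequence of 288 bases in GENCODE M39. The 3 coding sequences are shown because they carry the comparison between copies, from the start to the stop codon, with bases that differ from *Bglap* in capitals:
Bglap: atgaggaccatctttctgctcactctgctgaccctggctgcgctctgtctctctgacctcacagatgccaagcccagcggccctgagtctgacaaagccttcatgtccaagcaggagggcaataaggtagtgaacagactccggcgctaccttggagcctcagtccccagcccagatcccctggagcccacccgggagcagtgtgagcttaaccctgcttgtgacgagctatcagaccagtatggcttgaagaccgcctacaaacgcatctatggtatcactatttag
Bglap2: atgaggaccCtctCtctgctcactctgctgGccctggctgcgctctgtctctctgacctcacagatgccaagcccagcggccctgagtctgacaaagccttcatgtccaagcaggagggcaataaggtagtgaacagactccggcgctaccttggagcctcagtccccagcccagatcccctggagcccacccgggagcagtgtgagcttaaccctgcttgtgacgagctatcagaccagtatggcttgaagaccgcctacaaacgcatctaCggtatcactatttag
Bglap3: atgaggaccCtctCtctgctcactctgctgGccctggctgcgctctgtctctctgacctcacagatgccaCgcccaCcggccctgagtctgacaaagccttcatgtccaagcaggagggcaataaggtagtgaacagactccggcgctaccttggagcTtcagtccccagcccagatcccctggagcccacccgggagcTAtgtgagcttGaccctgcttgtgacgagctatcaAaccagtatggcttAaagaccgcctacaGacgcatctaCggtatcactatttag
*Bglap* and *Bglap2* differ at 4 of the 288 bases (98.6% identity) and share 1 run of 241 bases. *Bglap3* differs from *Bglap* at 13 bases (95.5% identity) and from *Bglap2* at 9 (96.9% identity). Of the 291 windows of 150 bases, the read length, in the *Bglap* transcript, 92 occur unchanged in a *Bglap2* transcript and 0 in a *Bglap3* transcript. Reads from those windows cannot be assigned by their own sequence, so the split between *Bglap* and *Bglap2* is uncertain. The counting kept only reads with a mapping quality of at least 10, so the counts of both copies may be too low.

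The 250 bases before the start of *Bglap* are shown because this is the promoter of the most abundant copy (RefSeq, GRCm38.p6, chr3:88384467-88384716, minus strand, written 5′ to 3′), with ACCACA and TATAAA in capitals:
Bglap promoter: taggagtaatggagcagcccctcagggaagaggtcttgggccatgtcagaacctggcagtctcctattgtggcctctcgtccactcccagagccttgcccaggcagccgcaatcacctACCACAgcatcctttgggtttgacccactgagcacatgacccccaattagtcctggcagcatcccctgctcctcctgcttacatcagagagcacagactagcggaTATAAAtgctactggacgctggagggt
ACCACA, the core letters bound by Runx factors, occurred once, 132 to 127 bases before the start on the forward strand, and the TATA box letters TATAAA once, 27 to 22 bases before it. CANNTG, the E-box letters, occurred once, 100 to 95 bases before the start, and reads the same on both strands. The motifs do not overlap there. Searched on both strands of the 250 bases before the start, ACCACA was found in 4614 of 32851 promoters (14.0%), TATAAA in 4063 (12.4%) and CANNTG in 21753 (66.2%). The promoter table matched 5 of the 7 genes, all but *Bglap2* and *Mgp*. The entries of *Bglap3*, *Ggcx*, *Vkorc1* and *Vkorc1l1* held neither ACCACA nor TATAAA in these windows.

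In control mDPCs *Bglap* was by far the most abundant of the 7 genes. Per kilobase of the GENCODE M39 canonical transcript, it stood at 1767 ± 180 CPM per kb (SD, n = 3 libraries here and for the other levels), followed by *Bglap2* at 348 ± 69.2 CPM per kb. *Mgp* came next at 31.5 ± 12 CPM per kb, then *Ggcx* at 11.8 ± 1.02 and *Vkorc1l1* at 7.72 ± 0.481 CPM per kb. *Vkorc1* at 0.154 ± 0.023 and *Bglap3* at 0.129 ± 0.164 CPM per kb were near zero. The ranges over the 3 control libraries were apart for each neighbouring pair in this order other than *Vkorc1* and *Bglap3*. On plain CPM, which grows with transcript length, *Ggcx* and *Vkorc1l1* lay above *Mgp*, and RLE scaling gave the same order as TMM. In the Dmp1-Cre;Setd2fl/fl libraries the order per kilobase became *Bglap* (176 ± 240), *Mgp* (46.2 ± 23.2) and *Bglap2* (23.1 ± 29.4 CPM per kb). *Bglap* stayed above *Bglap2* in each of these libraries. *Mgp*, at 28.7, 37.3 and 72.6 CPM per kb in replicates 1, 2 and 3, was above *Bglap2* in each and above *Bglap* (49.9, 24.6 and 452) in replicate 2 alone.

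The main question of the design was how expression in Dmp1-Cre;Setd2fl/fl mDPCs differed from control. Because the genes were picked with this comparison known, their differences are given as a description without a p. *Bglap* and *Bglap2* lay below every control in every Dmp1-Cre;Setd2fl/fl library, as the plot of CPM by library shows. For *Ggcx*, *Mgp* and *Vkorc1l1* the groups overlapped, with group means of *Ggcx* lower, of *Mgp* higher and of *Vkorc1l1* at 98.6% of control in the Dmp1-Cre;Setd2fl/fl group.

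**Figure D1:**
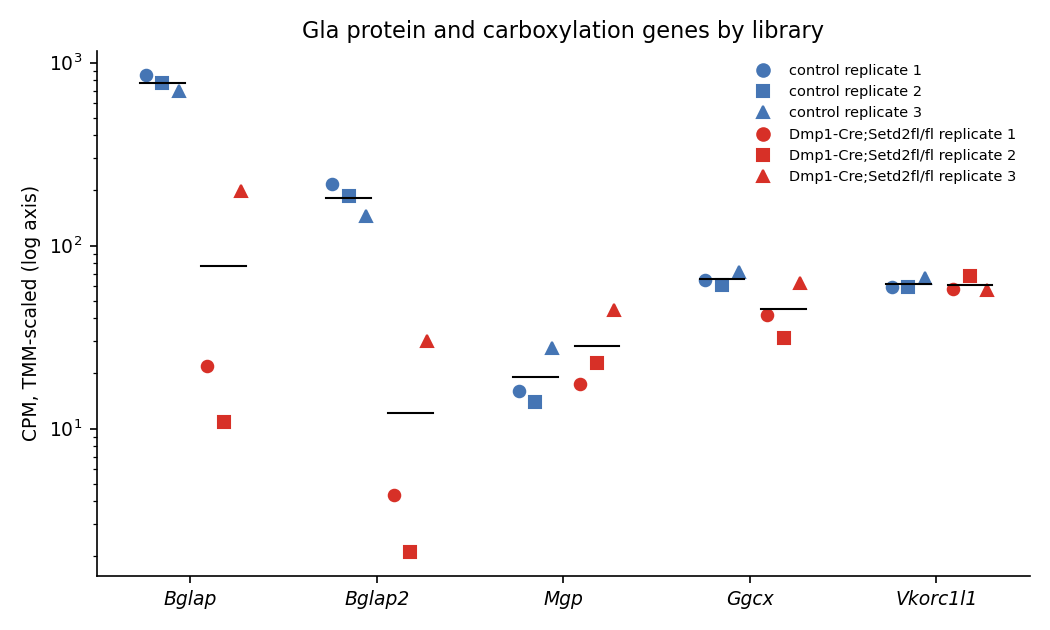
CPM (TMM-scaled, log axis) of the 5 genes that passed the filter on low counts, with 1 point per library, blue for control and red for Dmp1-Cre;Setd2fl/fl, the symbol giving the replicate number and black lines the group means. *Bglap* and *Bglap2* are at 701 to 859 and 145 to 217 CPM in control libraries, with every Dmp1-Cre;Setd2fl/fl library below, and *Vkorc1l1* is at 56.9 to 68.2 CPM in all 6.

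*Bglap*, the main osteocalcin gene, was at 859, 773 and 701 CPM in control replicates 1, 2 and 3 and at 22.0, 10.8 and 199 CPM in Dmp1-Cre;Setd2fl/fl replicates 1, 2 and 3. The groups did not overlap, and replicate 3 of the Dmp1-Cre;Setd2fl/fl group was the highest of its group, at 25.6% of the control mean against 2.82% and 1.39%. The fitted log2 fold change (log2FC, Dmp1-Cre;Setd2fl/fl minus control, from edgeR's quasi-likelihood fit) was -3.33 (SE, the standard error, 1.07, 95% interval -5.90 to -0.77). By count, *Bglap* ranked 87, 112 and 127 among all genes in the control libraries and 7901, 10110 and 772 in the Dmp1-Cre;Setd2fl/fl libraries.

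*Bglap2*, which encodes another osteocalcin, was at 217, 186 and 145 CPM in control replicates 1, 2 and 3 and at 4.35, 2.12 and 29.9 CPM in the Dmp1-Cre;Setd2fl/fl replicates. Again the groups were apart and replicate 3 was the highest of the Dmp1-Cre;Setd2fl/fl libraries, at 16.4% of the control mean. The log2FC was -3.92 (SE 0.96, 95% interval -6.21 to -1.62). With the 3 copies summed to 1 feature, it was -3.43 (SE 1.06, 95% interval -5.97 to -0.88). The sum removes the uncertain split but does not recover reads dropped for low mapping quality. Together the copies took 0.0789% to 0.107% of all counts in control libraries and 0.00131% to 0.0220% in Dmp1-Cre;Setd2fl/fl libraries.

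*Bglap3*, a copy expressed mainly outside bone in the mouse, had 1, 0 and 4 counts in control and 0, 0 and 1 in Dmp1-Cre;Setd2fl/fl replicates. It did not pass the filter on low counts. Summed over libraries the ratio of Dmp1-Cre;Setd2fl/fl to control was 0.191 (95% counting interval 0.00403 to 1.70), so no difference was detectable at this depth. In control replicate 2, its 0 counts of 18216 osteocalcin counts allow a share of up to 0.0165% (3 counts), and intervals and floors here cover counting error only.

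Of the osteocalcin counts, *Bglap2* held 20.2% (95% Wilson interval 19.6% to 20.7%), 19.4% (18.9% to 20.0%) and 17.1% (16.5% to 17.7%) in control replicates 1, 2 and 3. In the Dmp1-Cre;Setd2fl/fl replicates it held 16.5% (13.7% to 19.9%), 16.4% (12.3% to 21.6%) and 13.1% (12.1% to 14.1%). The share was lowest in replicate 3 of each group and lay below all controls in each Dmp1-Cre;Setd2fl/fl library. However, the intervals of Dmp1-Cre;Setd2fl/fl replicates 1 and 2 overlap those of all 3 controls. The interval of Dmp1-Cre;Setd2fl/fl replicate 3 (12.1% to 14.1%) lies below those of all 3 controls. The measured balance of the copies thus varied by a few percentage points, among controls as well. The sum of the copies was lower by more than an order of magnitude in Dmp1-Cre;Setd2fl/fl replicates 1 and 2.

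*Mgp* (ENSMUSG00000030218), on chromosome 6 from 136872435 to 136875823 on the minus strand, encodes matrix Gla protein. It was at 16.1, 13.9 and 27.6 CPM in control replicates 1, 2 and 3 and at 17.5, 22.7 and 44.2 CPM in the Dmp1-Cre;Setd2fl/fl replicates. The groups overlap, and replicate 3 was the highest library of each group. The log2FC was 0.55 (SE 0.41, 95% interval -0.42 to 1.52). Each Dmp1-Cre;Setd2fl/fl library was above the control library of the same number, and a fit with a replicate block gave 0.51 (SE 0.15, 95% interval 0.18 to 0.84). Without Dmp1-Cre;Setd2fl/fl replicate 3 it was 0.07, and without control replicate 3 it was 0.90.

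*Ggcx* (ENSMUSG00000053460), on chromosome 6 from 72414308 to 72430712 on the plus strand, encodes the gamma-glutamyl carboxylase of the endoplasmic reticulum. It was at 64.6, 60.8 and 72.1 CPM in control replicates and at 41.9, 31.4 and 62.2 CPM in Dmp1-Cre;Setd2fl/fl replicates 1, 2 and 3. Replicates 1 and 2 of the Dmp1-Cre;Setd2fl/fl group lay below every control, at 63.6% and 47.7% of the control mean, and replicate 3, at 94.5%, lay within the control range. The log2FC was -0.54 (SE 0.24, 95% interval -1.11 to 0.02), and with the replicate block it was -0.59 (SE 0.14, 95% interval -0.92 to -0.27). Without Dmp1-Cre;Setd2fl/fl replicate 3 it was -0.85 (SE 0.16).

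*Vkorc1l1* (ENSMUSG00000066735), on chromosome 5 from 129941970 to 129986692 on the plus strand, encodes the epoxide reductase paralog. It was at 59.7, 59.6 and 66.3 CPM in control and at 57.9, 68.2 and 56.9 CPM in Dmp1-Cre;Setd2fl/fl replicates, and the groups overlap. Its log2FC was -0.02 (SE 0.11, 95% interval -0.29 to 0.25), the narrowest interval of the 5 genes. Its body overlaps 2 other genes of the table, and counting was done without strand, so reads of these genes cannot be told apart by strand.

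*Vkorc1* (ENSMUSG00000096145), on chromosome 7 from 127893063 to 127895617 on the minus strand, encodes the warfarin-sensitive epoxide reductase. It held 8, 6 and 7 counts in control and 2, 1 and 5 in Dmp1-Cre;Setd2fl/fl replicates and did not pass the filter on low counts. Every Dmp1-Cre;Setd2fl/fl library had fewer counts than every control, and summed over libraries the ratio was 0.363 (95% counting interval 0.139 to 0.854, which leaves out the spread between libraries). In GENCODE M39, 401 of the 2458 exonic bases of its canonical transcript (16.3%) also belong to exons of the read-through gene *Gm21974* on the same strand. *Gm21974* is absent from the deposited table, and no other gene of that table overlaps *Vkorc1*. The other exonic bases are not shared with *Gm21974*. Why the count was low was not tested, so these counts do not show that *Vkorc1* was barely expressed.

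At the study's thresholds (unadjusted p below 0.05, log2FC at or beyond 0.58 in either direction) 2 of the 5 genes that passed the filter on low counts were lower, *Bglap* and *Bglap2*, and 0 were higher. Over all 16519 genes tested, 2.71% were lower and 1.10% higher at these thresholds. Of the 5 genes, *Bglap* and *Bglap2* were also those whose 3 Dmp1-Cre;Setd2fl/fl libraries lay below all 3 controls, as was so for 7.98% of all genes tested. None of the 5 lay wholly above, as was so for 7.26%. With the replicate block, the thresholds were passed lower by *Ggcx* alone of the 5 and higher by none, against 4.37% and 2.05% of all genes. The block gave *Bglap* -4.50 (95% interval -10.50 to 1.5) and *Bglap2* -4.62 (95% interval -10.06 to 0.81), larger in size but with wider intervals that reach 0. After Benjamini-Hochberg adjustment, edgeR called 0% of all genes at 0.05 (0 of 16519, with 1252 at an unadjusted p under 0.05), while edgeR with the replicate block called 161, DESeq2 141 and limma voom with quality weights 1385. Without Dmp1-Cre;Setd2fl/fl replicate 3, edgeR called 561, and without replicate 3 of both groups 1138. Nothing was read from these counts about the 7 genes, since the same comparison entered their choice.

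**Figure D2:**
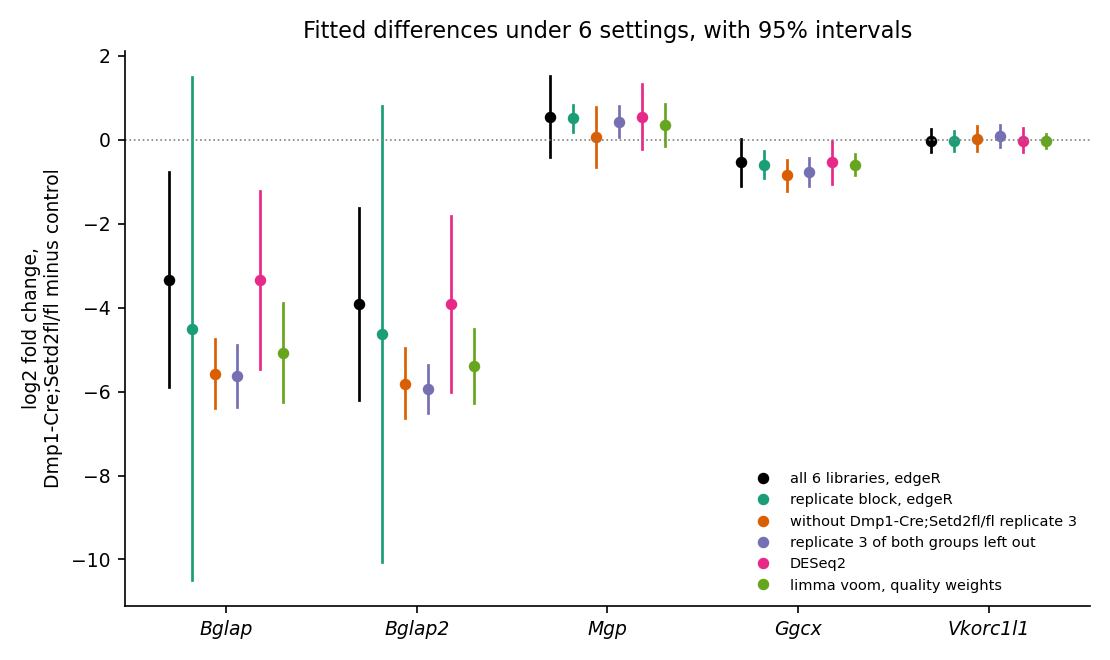
Log2 fold change (Dmp1-Cre;Setd2fl/fl minus control) of the 5 genes that passed the filter under 6 settings, given by colour, with points for the fitted values and lines for 95% intervals. *Bglap* and *Bglap2* are below 0 under each setting, between -3.33 and -5.94, with the widest intervals under the replicate block, and *Vkorc1l1* lies between -0.03 and 0.09.

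Leaving out Dmp1-Cre;Setd2fl/fl replicate 3, the library with the most osteocalcin of its group, moved *Bglap* to -5.57 (SE 0.35) and *Bglap2* to -5.81 (SE 0.35). With replicate 3 of both groups left out, *Bglap* was at -5.62 and *Bglap2* at -5.94. Without a filter on low counts *Bglap* no longer passed the thresholds, at -3.33 with a 95% interval of -6.96 to 0.30.

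The osteocalcin copies lay low in the same libraries as the listed odontoblast markers, and none of the other listed bone markers tested passed the thresholds. The lists do not fully separate odontoblast from bone genes. *Dmp1*, listed for odontoblasts and at a log2FC of -1.75 (SE 0.59), is also expressed in osteocytes. Of 7 odontoblast markers, 6 passed the thresholds as lower, and all 7 had every Dmp1-Cre;Setd2fl/fl library below every control, with a median log2FC of -2.20 beside 0.02 for all genes. The list includes genes the study discusses from these samples, so it is not independent evidence. The summed level of the 7 markers, mostly *Dspp* in control, was 18838 to 19012 CPM in control and 753 to 7790 CPM in Dmp1-Cre;Setd2fl/fl libraries. With the replicate block, 3 of the 7 passed. *Dspp* stood at 3.08%, 1.52% and 37.5% of its control mean in Dmp1-Cre;Setd2fl/fl replicates 1, 2 and 3, near the 2.82%, 1.39% and 25.6% of *Bglap*. *Col1a1*, for type I collagen, stood at 8.30%, 5.59% and 51.3%. In bulk RNA, fewer odontoblasts and less osteocalcin RNA per odontoblast cannot be told apart.

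Of 6 other osteoblast and bone markers tested, none passed the thresholds, with a median log2FC of -0.07. Their summed level was 1459 to 2058 CPM in control and 1449 to 2142 CPM in Dmp1-Cre;Setd2fl/fl libraries. Most of this sum was 1 gene, *Alpl*, for alkaline phosphatase, so it says little about the others. *Alpl* was at 1141, 1343 and 1697 CPM in control and at 1162, 1211 and 1850 CPM in Dmp1-Cre;Setd2fl/fl replicates. *Ibsp*, the bone sialoprotein gene, was at 18.9, 23.1 and 43.7 CPM in control and at 23.3, 15.5 and 38.3 CPM in Dmp1-Cre;Setd2fl/fl replicates (log2FC -0.15, SE 0.42, adjusted p = 0.94 by edgeR). *Spp1*, the osteopontin gene, had a log2FC of 0.22 (SE 0.40). *Sp7*, the osterix gene of osteoblast and odontoblast lineages, is among these 6, and its 3 Dmp1-Cre;Setd2fl/fl libraries (195, 150 and 172 CPM) lay below all controls (233, 235 and 238 CPM), with a log2FC of -0.45 (SE 0.12, adjusted p = 0.62 by edgeR) that did not reach 0.58 in size. The osteocyte gene *Sost* had 2 to 14 counts per library.

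**Figure D3:**
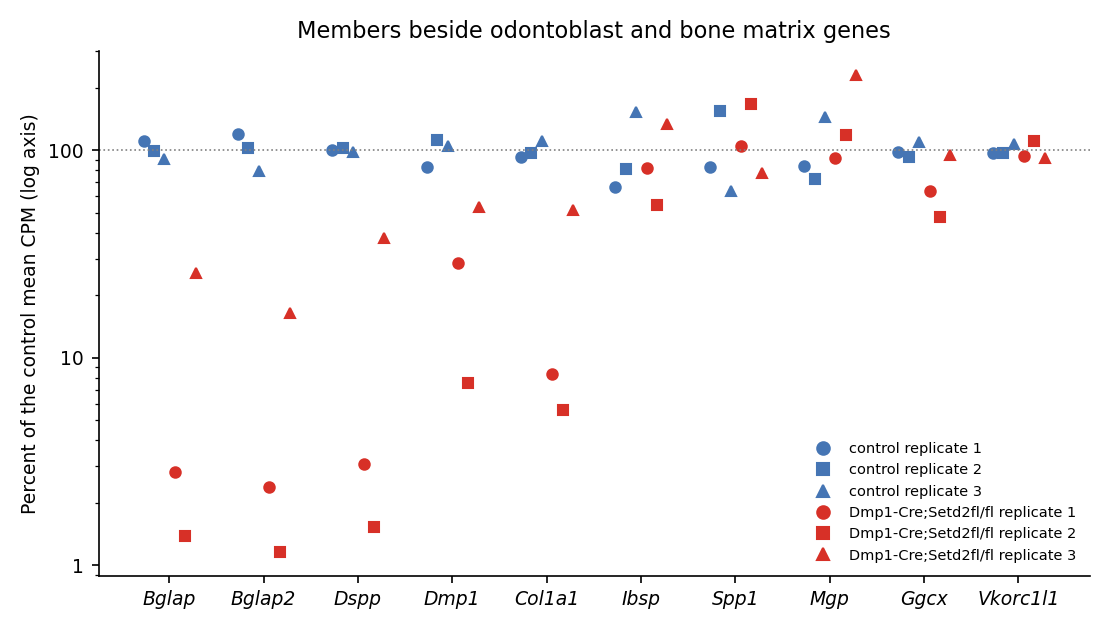
Percent of the control mean CPM (log axis) in each library. Genes are the osteocalcin copies, odontoblast and bone matrix genes (*Dspp*, *Dmp1*, *Col1a1*, *Ibsp*, *Spp1*) and the other Gla pathway genes. Blue is control and red Dmp1-Cre;Setd2fl/fl, the symbol giving the replicate number. In Dmp1-Cre;Setd2fl/fl replicate 2 *Bglap* is at 1.39%, *Dspp* at 1.52% and *Ibsp* at 54.2% of the control mean. Replicate 3 is the highest of the Dmp1-Cre;Setd2fl/fl group for every gene shown, *Ibsp* included, other than *Spp1* and *Vkorc1l1*.

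Over the 6 libraries, the 5 genes whose log2 CPM correlated most with the summed osteocalcin copies, among 10480 genes with a mean of at least 10 CPM, were *Tac2*, *Slc38a11*, *Col11a1*, *Ablim3* and *Nes* (Pearson r 0.996 to 0.999). *Dspp* was 9th and *Col1a1* 29th in that order, *Ibsp* 3090th. All points share the genotype difference and the deviation of replicate 3. *Tac2*, the neurokinin B gene, was at 19.5, 17.7 and 16.3 CPM in control and at 0.574, 0.318 and 5.97 CPM in Dmp1-Cre;Setd2fl/fl replicates, so that replicate 3 was again the highest of its group. *Nes*, for the odontoblast filament protein nestin, was at 1191 to 1409 CPM in control and 402 to 851 CPM in Dmp1-Cre;Setd2fl/fl libraries.

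The 5 genes most like *Mgp* over the 6 libraries were *Slc39a8*, *Adgrg6*, *Gab2*, *Hspb8* and *Ildr2* (Pearson r 0.992 to 0.995). Of 10480 genes, the endothelial *Pecam1* was 14th (r 0.98), the smooth muscle *Acta2* 169th (0.94) and the epithelial *Amelx* 1280th (0.77). *Dspp* had an r of -0.02. Over deviations from the group means these 4 genes had r values of 0.98, 0.99, 0.86 and 0.70. Unlike *Mgp*, the endothelial *Kdr* was lower in Dmp1-Cre;Setd2fl/fl replicates 1 and 2 (58.4 and 53.5 CPM) than in control replicates 1 and 2 (66.5 and 70.3 CPM). *Slc39a8*, a zinc and manganese transporter gene, was at 19.3, 16.5 and 36.4 CPM in control and at 24.2, 29.2 and 67.0 CPM in Dmp1-Cre;Setd2fl/fl replicates, highest in replicate 3 of each group as *Mgp* was. The 6 endothelial markers summed to 322, 354 and 495 CPM in control and to 328, 354 and 734 CPM in Dmp1-Cre;Setd2fl/fl replicates, and 0 of 6 passed the thresholds. Smooth muscle and pericyte markers summed to 333 to 340 CPM in control and 334 to 456 CPM in Dmp1-Cre;Setd2fl/fl libraries. Of these, 0 of 5 tested passed the thresholds (1 lower with the replicate block, *Cspg4* at -0.59), and *Tagln* had 0 to 4 counts per library. Their median log2FC was 0.24, with 1 of 5 below 0. *Rgs5*, most of the sum, was at 254, 257 and 210 CPM in control and at 270, 310 and 331 CPM in Dmp1-Cre;Setd2fl/fl replicates. Its groups did not overlap (log2FC 0.34, SE 0.13, adjusted p = 0.65 by edgeR). Dental epithelium markers also were highest in replicate 3, at 30205 and 49933 CPM summed against 2204 to 7262 CPM in the other 4 libraries. Cartilage markers, another source of *Mgp*, summed to 114 to 147 CPM in control and 96.1 to 157 CPM in Dmp1-Cre;Setd2fl/fl libraries, with 0 of 5 past the thresholds (1 lower with the replicate block, *Col9a1* at -0.75). Macrophage and osteoclast markers summed to 524 to 582 and 462 to 549 CPM, with 0 of 6. The part of these cell types in the level of *Mgp* was not tested.

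Of the 15 genes within 100 kb of the osteocalcin copies, 11 were tested and none was lower or higher at the study's thresholds. Their log2FC values ran from -0.71 (*Gm37116*, SE 0.36) to 0.19 (*Lmna*, which encodes lamin A and C, SE 0.19), with a median of -0.05. *Pmf1*, 9.68 kb from *Bglap*, had 440, 475 and 566 counts in control and 412, 411 and 451 counts in Dmp1-Cre;Setd2fl/fl replicates (log2FC -0.29, SE 0.16, adjusted p = 0.70 by edgeR). *Smg5*, at -21.2 kb on the other side, had a log2FC of -0.19 (SE 0.14, adjusted p = 0.74 by edgeR). Between the copies lie the unprocessed pseudogenes *Gm6821*, with 19, 21 and 5 counts in control and 0, 0 and 2 in Dmp1-Cre;Setd2fl/fl replicates, and *Gm21956*, with 3, 5 and 3 and then 0, 0 and 1 counts. Both were too low to be tested, and whether they share reads with the copies was not tested.

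**Figure D4:**
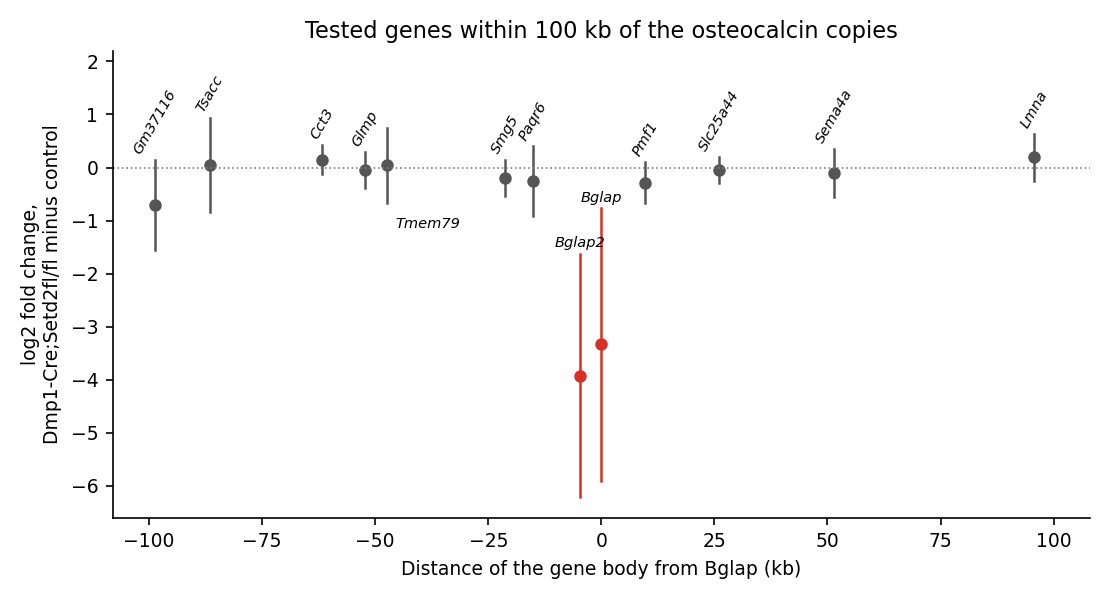
Log2 fold change (Dmp1-Cre;Setd2fl/fl minus control) against distance from *Bglap* in kb for the tested genes within 100 kb of the osteocalcin copies, points for fitted values and lines for 95% intervals. *Bglap* and *Bglap2* (red) are at -3.33 and -3.92, and the 11 other genes (grey) between -0.71 and 0.19.

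Around the 7 genes, 5 lists of the vitamin K and Gla pathway held 44 genes, of which 34 were tested. At the study's thresholds 2 of them (5.88%) were higher, *Pros1* and *Cebpd*, and 0 were lower, beside 1.10% and 2.71% of all genes tested. Of the 34 genes, 0 were at an adjusted p under 0.05 by edgeR. The median log2FC was 0.03 beside 0.02 for all genes.

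None of the 9 genes for vitamin K handling and carboxylation partners passed the thresholds (median log2FC -0.07). *Lrp1*, a receptor for vitamin K-carrying lipoprotein remnants, was at 1237, 1362 and 1403 CPM in control and at 898, 803 and 1105 CPM in Dmp1-Cre;Setd2fl/fl replicates, groups that do not overlap. Its log2FC of -0.51 (SE 0.16, adjusted p = 0.62 by edgeR) did not reach 0.58 in size. *Apoe*, for the apolipoprotein of those remnants, was at 916, 1071 and 920 CPM in control and at 1507, 2335 and 951 CPM in Dmp1-Cre;Setd2fl/fl replicates (log2FC 0.72, SE 0.31, adjusted p = 0.66 by edgeR). Replicate 3 of the Dmp1-Cre;Setd2fl/fl group lay within the control range, and with the replicate block *Apoe* passed the thresholds at 0.63. *Furin*, the protease that can cleave propeptides of Gla proteins, had a log2FC of -0.22 (SE 0.14) and *Aifm2*, a vitamin K reductase gene, of -0.20 (SE 0.15).

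Among other Gla-domain proteins 5 of 13 were tested, and 1 was higher. *Pros1*, for protein S, a Gla protein that acts as an anticoagulant and as a ligand of TAM receptors, was at 102, 105 and 110 CPM in control and at 159, 224 and 115 CPM in Dmp1-Cre;Setd2fl/fl replicates. Every Dmp1-Cre;Setd2fl/fl library lay above every control, replicate 3 by little, and the log2FC was 0.65 (SE 0.23, adjusted p = 0.63 by edgeR). *Pros1* lost the call when any library other than Dmp1-Cre;Setd2fl/fl replicate 3 was left out, at 0.38 without Dmp1-Cre;Setd2fl/fl replicate 2 and 0.63 to 0.69 without any of the other 4, and was at 0.86 without Dmp1-Cre;Setd2fl/fl replicate 3. *Gas6*, the other Gla ligand of these receptors, was at 115 to 132 CPM in control and 128 to 162 CPM in Dmp1-Cre;Setd2fl/fl libraries (log2FC 0.24, SE 0.12, adjusted p = 0.69 by edgeR). The transmembrane Gla protein genes *Prrg1* and *Prrg3* had log2FC values of 0.52 (SE 0.35) and 0.02 (SE 0.13). Genes of clotting factors made in the liver were near zero, *F2* with at most 4 counts and *F9* with at most 2 counts in a library, beside liver markers that summed to 0.265 to 0.478 CPM. *F10*, the factor X gene, had 7, 6 and 0 counts in control and 21, 30 and 6 in Dmp1-Cre;Setd2fl/fl replicates and was too low for the filter. It passed the thresholds as higher in the fits without a filter, without Dmp1-Cre;Setd2fl/fl replicate 3 and without replicate 3 of both groups. *Ucma*, a Gla protein gene of cartilage, had 1 count over all libraries.

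None of 3 receptor genes tested passed the thresholds. The TAM receptor gene *Tyro3* was at 55.4, 60.4 and 58 CPM in control and at 51.8, 43.7 and 52.1 CPM in Dmp1-Cre;Setd2fl/fl replicates (log2FC -0.23, SE 0.11, adjusted p = 0.67 by edgeR). *Mertk* and *Axl* had log2FC values of -0.34 (SE 0.20) and 0.16 (SE 0.11). *Gprc6a* and *Gpr158*, described as receptors of osteocalcin in other tissues, had at most 2 counts and 1 count in a library.

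Of 11 transcription factors of the osteocalcin promoter, 1 was higher and 0 were lower at the thresholds (median log2FC 0.20). *Cebpd*, a C/EBP factor gene, was at 25.9, 27.5 and 25.9 CPM in control and at 46.6, 75.6 and 30.0 CPM in Dmp1-Cre;Setd2fl/fl replicates (log2FC 0.94, SE 0.31, adjusted p = 0.63 by edgeR). It lost the call without control replicate 1 or 3 (0.93 each) and without Dmp1-Cre;Setd2fl/fl replicate 2 (0.54). *Sp7*, given above among the bone markers, did not reach 0.58 in size. *Rxra*, the partner of the vitamin D receptor, had a log2FC of 0.37 (SE 0.15) and *Cebpb* one of 0.37 (SE 0.19). *Runx2*, whose product binds the ACCACA letters shown above, was at 50.7, 53.5 and 64.6 CPM in control and at 48.6, 45.0 and 66.7 CPM in Dmp1-Cre;Setd2fl/fl replicates (log2FC -0.07, SE 0.18, adjusted p = 0.92 by edgeR), and is named for that promoter match.

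None of 6 genes for BMP ligands and receptors, with which matrix Gla protein interacts, passed the thresholds (median log2FC 0.01). *Acvrl1*, the endothelial ALK1 receptor gene, was at 38.6 to 42.4 CPM in control and 44.8 to 50.9 CPM in Dmp1-Cre;Setd2fl/fl libraries (log2FC 0.26, SE 0.10, adjusted p = 0.64 by edgeR). *Bmp7* had a log2FC of -0.40 (SE 0.18), *Bmp6* one of -0.29 (SE 0.17) and *Eng*, an endothelial co-receptor gene, one of 0.13 (SE 0.21).

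**Figure D5:**
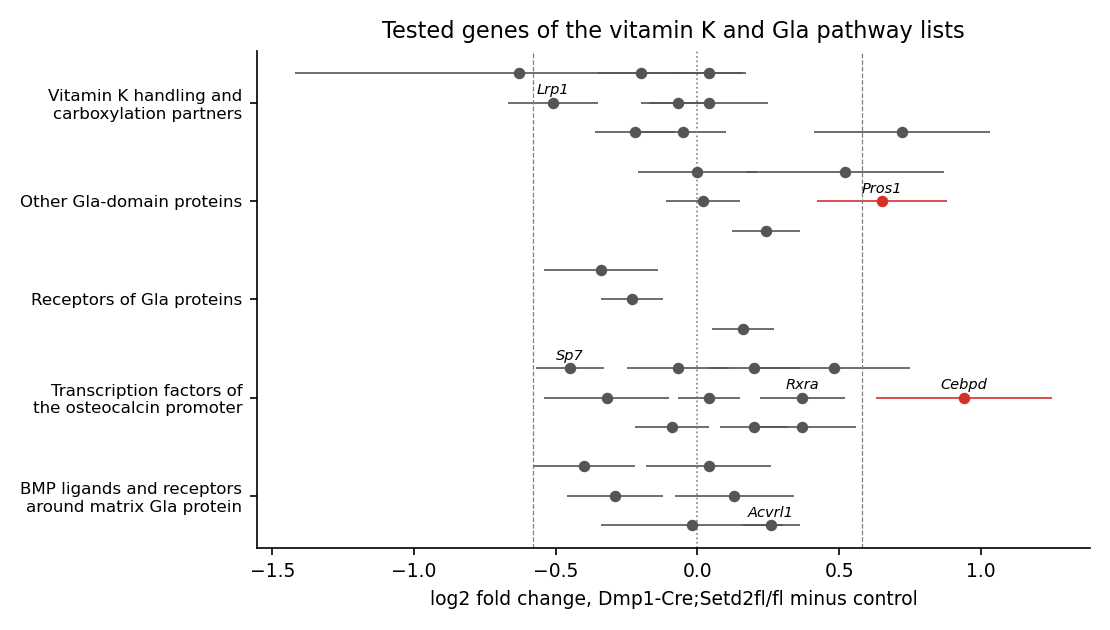
Log2 fold change (Dmp1-Cre;Setd2fl/fl minus control) of the 34 tested genes in 5 vitamin K and Gla pathway lists, with bars of 1 SE, dashed lines at the threshold of 0.58 in size and names for genes with an unadjusted p under 0.05. *Pros1* and *Cebpd* (red) passed the study's thresholds, at 0.65 and 0.94, and the heights within a list only spread the points.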

How the data were processed

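The authors mapped paired-end reads of 150 bases (HISAT2), obtained gene counts with HTSeq, ignoring strand and reads of mapping quality below 10, and deposited 1 table with whole-number counts for 6 libraries (3 control, 3 Dmp1-Cre;Setd2fl/fl). Bowtie2, DESeq2 and GRCm39 stand in the submitters' processing notes as well. The deposited table further holds the authors' own comparison, a mean signal of normalized counts, a ratio between groups, the log2 of that ratio, and p-values, and none of these were used. Of the per-sample columns 0 were left unused, and 0 lines lacked a gene name.

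Counts were fitted with edgeR 4.0.16 (R 4.3.3), using filterByExpr at its minimum count of 10, TMM and the robust quasi-likelihood test (Benjamini-Hochberg adjustment over the 16519 genes tested). Of the 7 genes, 5 passed the filter. CPM uses TMM-scaled library sizes. Standard errors are the size of the log2 fold change over the root of F. Correlations used log2 CPM with a prior count of 2. Depth of 18557647 to 19210750 counts per library leaves counting error small for most values of the 5 genes. It is larger for *Bglap2* in Dmp1-Cre;Setd2fl/fl replicates 1 and 2, with 91 and 40 counts.

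The genes and lists were chosen with earlier results of these data known. *Alpl* and *Rgs5* were named from the marker lists after their values were seen. The text names the 7 genes, up to 4 genes of smallest p per pathway list, the genes within 100 kb of the osteocalcin copies by their range, the 5 genes most correlated with osteocalcin and with *Mgp*, the reference genes *Setd2*, *Dspp*, *Dmp1*, *Col1a1*, *Ibsp* and *Spp1*, and marker lists. *F10*, *Cspg4*, *Col9a1*, *Runx2*, *Pmf1*, *Smg5*, *Pecam1*, *Acta2* and *Kdr* were picked after their values were seen. Alternatives were RLE size factors, leaving the 100 highest genes out of library sizes, no filter, a strict filter of 10 counts in every library, DESeq2 1.42.0, limma voom (limma 3.58.1) with quality weights, a replicate block, leaving out each library, replicate 3 of both groups left out, adjusted p under 0.05 and 0.1, and summed osteocalcin copies. Replicate numbers come from the sample labels. Deviations from group means of same-numbered libraries correlated at 0.453, 0.465 and 0.663, each above 0.1, while replicates 1 and 2 correlated across numbers too (0.455 and 0.380). The values reported come from the fit without a block, and blocked values stand beside them where they change a call. Sequences are from GENCODE M39 transcripts and RefSeq promoters. Values of 1 listed gene are not reported here.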

Additional observations from a re-analysis of the deposited data

How the results depend on the processing

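The signs of *Bglap*, *Bglap2*, *Mgp* and *Ggcx* did not turn under any alternative run, and *Vkorc1l1* stayed near 0 with either sign. Of 136 values under alternatives, 113 moved by less than the spread between replicates or, for counts, by at most 1.5 times. By limma voom *Bglap* was at -5.08 and *Bglap2* at -5.39, and without replicate 3 of both groups at -5.62 and -5.94. Leaving out each library in turn gave -5.57 to -2.82 for *Bglap*, -5.81 to -3.42 for *Bglap2*, 0.07 to 0.90 for *Mgp*, -0.85 to -0.34 for *Ggcx* and -0.11 to 0.03 for *Vkorc1l1*. The most extreme values of *Bglap*, *Bglap2*, *Mgp* (its lowest) and *Ggcx* came without Dmp1-Cre;Setd2fl/fl replicate 3, and *Mgp* was at 0.90 without control replicate 3.

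Of the 7 genes, 2 were called lower (*Bglap* and *Bglap2*). This count was 1 without a filter on low counts (*Bglap2*), 1 with the replicate block (*Ggcx*, and neither osteocalcin copy), 3 without Dmp1-Cre;Setd2fl/fl replicate 3 (*Bglap*, *Bglap2* and *Ggcx*), and 0 at an adjusted p under 0.05 or under 0.1. Leaving out each of the remaining 5 libraries gave 2. Of pathway list genes, 0 were lower and 2 higher in the edgeR fit of all 6 libraries. The lower count was 1 by limma voom and 1 with the replicate block, 2 without replicate 3 of both groups, and 0 to 3 over the single libraries left out, with 3 without Dmp1-Cre;Setd2fl/fl replicate 3. The higher count was 5 without replicate 3 of both groups, 0 at an adjusted p under 0.05 or 0.1, and 0 to 6 over the libraries left out. It was 6 without Dmp1-Cre;Setd2fl/fl replicate 3, 0 without control replicate 1 or 3 or Dmp1-Cre;Setd2fl/fl replicate 2, and 1 without control replicate 2 or Dmp1-Cre;Setd2fl/fl replicate 1, so the calls of *Pros1* and *Cebpd* depend on single libraries. Calls over all genes moved too, from 448 lower and 181 higher to 1161 and 677 without Dmp1-Cre;Setd2fl/fl replicate 3, and to 1261 and 750 without replicate 3 of both groups. Median log2 fold changes over all genes stayed within 0.1 of 0 under every setting. The causes were not tested. With 3 libraries a group and pools that may share mice, small differences such as those of *Mgp* and *Ggcx* are limited by the spread between libraries, and *Bglap3* and *Vkorc1* by their counts.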
